A study of Homo sapiens with 12 samples.

Results

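Cholesterol is built from acetyl-CoA by a chain of enzymes, and the genes of that chain are switched on together by the sterol regulatory element-binding proteins (SREBPs). The transcripts of 28 genes of this system were measured in LNCaP, a human line of prostate cancer cells that respond to androgen, with and without an shRNA against TMEFF2, a transmembrane protein of prostate and brain. The genes were picked by name, with earlier results of these data known, from the 34643 gene symbols of the deposited table. They comprise 18 enzymes of the chain, 5 genes that control SREBP activity and 5 genes of cholesterol transport and storage, and all 28 of 28 passed the filter on low counts.

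The 12 libraries formed 4 groups of 3. Cells carried either a scramble control shRNA (shScramble) or an shRNA against TMEFF2 (shTMEFF2), each driven by the U6 promoter of a lentivirus and selected with puromycin. All cells were held for 24 h in medium with charcoal-stripped serum, which lowers androgen, and then received either 10 nM of the androgen dihydrotestosterone (DHT+) or ethanol as vehicle (DHT-) for 24 h. The 3 libraries of a group were separate treatments and RNA extractions, drawn from 2 transductions that the labels do not assign to replicates, and which TMEFF2 shRNA the sequenced cells carried is not named. P-values therefore describe the spread between these treatments only.

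In the SREBP system the precursor proteins, encoded by SREBF1 and SREBF2, sit in the membrane of the endoplasmic reticulum bound to the escort protein SCAP. When sterols are scarce, SCAP carries SREBP to the Golgi, where it is cut and its free end enters the nucleus and raises the genes of cholesterol synthesis and uptake. When sterols are plentiful, the INSIG proteins hold SCAP and SREBP in the endoplasmic reticulum. Prostate cancer cells such as LNCaP are known to raise lipid and cholesterol synthesis in response to androgen.

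Among the control genes, INSIG1 and INSIG2 moved in opposite directions, and SREBF2 encodes the main SREBP of cholesterol synthesis. Promoters of 6 members are printed, those of these 3 genes and of HMGCS1, MSMO1 and SC5D, enzymes whose DHT response differed between the lines. Each is the 250 bases before the RefSeq transcription start on GRCh38.p14, written 5′ to 3′ on the strand of the gene. MSMO1 was added after its motif matches had been seen. Capitals mark matches to CCAAT or its reverse complement, and to TCACNNCA on either strand, a loose form of the sterol regulatory element that SREBPs bind. The windows are chr5:43313413-43313662 (minus strand) for HMGCS1, chr4:165327419-165327668 (plus) for MSMO1, chr11:121292521-121292770 (plus) for SC5D, chr7:155297628-155297877 (plus) for INSIG1, chr2:118088221-118088470 (plus) for INSIG2 and chr22:41832855-41833104 (plus) for SREBF2.
HMGCS1: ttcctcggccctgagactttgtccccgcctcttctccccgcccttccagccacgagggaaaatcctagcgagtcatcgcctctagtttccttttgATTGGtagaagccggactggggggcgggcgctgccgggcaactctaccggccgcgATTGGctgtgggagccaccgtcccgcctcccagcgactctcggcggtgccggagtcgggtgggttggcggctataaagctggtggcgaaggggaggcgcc
MSMO1: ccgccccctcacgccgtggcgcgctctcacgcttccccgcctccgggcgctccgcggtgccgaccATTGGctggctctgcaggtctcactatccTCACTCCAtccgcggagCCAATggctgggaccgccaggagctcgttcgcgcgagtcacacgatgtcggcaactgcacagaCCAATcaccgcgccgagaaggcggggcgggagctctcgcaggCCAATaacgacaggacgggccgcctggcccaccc
SC5D: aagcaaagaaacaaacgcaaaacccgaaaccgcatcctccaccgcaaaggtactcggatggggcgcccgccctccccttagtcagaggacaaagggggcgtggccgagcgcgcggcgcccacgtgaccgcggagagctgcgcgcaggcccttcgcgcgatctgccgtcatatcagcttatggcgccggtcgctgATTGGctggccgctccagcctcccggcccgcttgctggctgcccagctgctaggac
INSIG1: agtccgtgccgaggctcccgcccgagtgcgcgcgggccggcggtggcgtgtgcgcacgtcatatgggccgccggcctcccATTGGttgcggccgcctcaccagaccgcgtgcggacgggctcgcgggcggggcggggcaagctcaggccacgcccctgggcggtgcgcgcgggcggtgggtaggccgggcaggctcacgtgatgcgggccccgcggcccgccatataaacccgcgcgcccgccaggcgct
INSIG2: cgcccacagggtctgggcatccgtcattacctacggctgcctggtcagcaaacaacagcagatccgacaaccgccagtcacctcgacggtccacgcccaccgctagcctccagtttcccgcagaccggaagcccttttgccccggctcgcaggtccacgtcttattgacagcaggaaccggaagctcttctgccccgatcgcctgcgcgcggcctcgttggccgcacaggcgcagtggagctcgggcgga
SREBF2: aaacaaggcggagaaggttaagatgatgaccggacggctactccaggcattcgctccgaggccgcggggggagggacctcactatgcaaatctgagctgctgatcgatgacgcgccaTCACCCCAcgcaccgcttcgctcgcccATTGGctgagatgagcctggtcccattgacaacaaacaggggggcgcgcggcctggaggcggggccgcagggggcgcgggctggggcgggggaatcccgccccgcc
In the GENCODE annotation of GRCh38, longer transcripts of the same gene begin inside these windows, covering 100 bases of the HMGCS1 window, 102 of INSIG1, 90 of SC5D, 19 of INSIG2 and 2 of MSMO1. The SREBF2 window lies wholly before its gene and holds an exon of SREBF2-AS1 on the opposite strand. RefSeq promoters were found for 25 of the 28 members (not for ACAT2, FDFT1 and SQLE). The letters TCACNCCAC, the strict form of the element, were found on either strand in 1 of the 25, SREBF2, against 0.875% of 27305 promoters of the same length. The match in SREBF2 begins 133 bases before the start, with a CCAAT match beginning 106 bases before it on the other strand. The looser TCACNNCA, which includes every match to the strict form, was found in 3 of 25 (MSMO1, MVK and SREBF2) against 10.3% of all. CCAAT was found in 17 of 25 members, 12 of them among the 15 enzymes with an entry, against 33.0% of all promoters. MSMO1 held 4 CCAAT matches and 1 of TCACNNCA, and HMGCS1 held 2 CCAAT matches, whereas INSIG2 held neither. SREBF1 and SCAP also held neither and are not printed, although the DHT response of SCAP differed between the lines. A match describes letters in a window and is not a measured binding site.

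Totals were 19450866 to 22612046 estimated counts per library (median 21194622). Levels below are given as CPM, counts scaled to library size, after TMM normalization, and differences are log2 fold changes ± standard error with 3 libraries per group. A gene passed the test at an adjusted p of at most 0.05 (edgeR's quasi-likelihood test, Benjamini-Hochberg over 15419 genes) and was called when the change was also at least 1.5-fold. CPM is not scaled by transcript length, so levels of different genes are not ranked. All 7 luminal prostate markers were present in every library (lowest level 79.7 CPM), and they summed to 4630–4865 CPM in shScramble DHT-, 5127–5546 in shScramble DHT+, 4054–4355 in shTMEFF2 DHT- and 3710–3761 in shTMEFF2 DHT+. Markers of 12 basal, stromal, endothelial, immune and neuroendocrine genes summed to 48.3–56.1, 41.6–43.8, 60.8–68.3 and 50.8–61.2 CPM in the same order. Of these 12, only 2 had at most 3 counts in every library, the basal keratin KRT5 (no count in any) and CHGA. The others reached more, up to 30.4 CPM for COL1A1 and 28.3 CPM for VWF. PTPRC and CD68 reached 170 and 177 counts. The part of either list in the results was not tested.

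The RNA of the shRNA target was compared first. TMEFF2 stood at 77.8, 73.8 and 103 CPM in shScramble DHT- and at 68.6, 39.3 and 81.7 in shTMEFF2 DHT-. With DHT the values were 173, 117 and 169 in shScramble and 142, 90.1 and 114 in shTMEFF2. The groups overlapped at both DHT levels, and the differences between the lines did not pass the test (-0.43 ± 0.25, adjusted p = 0.5, at DHT-, and -0.41 ± 0.25, adjusted p = 0.3, at DHT+). The line names below are therefore those of the labels. RNA counts do not measure the protein. Western blots in the paper showed appreciable loss of TMEFF2 protein in LNCaP cells with some, not all, of its TMEFF2 shRNAs. The paper also cited TMEFF2 mRNA levels in such cells for its statement that the shRNA silenced TMEFF2.

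In shScramble cells DHT raised most of the cholesterol genes. In bulk RNA, more responding cells and more RNA per cell cannot be told apart. Past the test, 19 of the 28 rose and 3 fell, and 16 and 1 were called at 1.5-fold. Of all 15419 genes, 14.4% rose and 12.6% fell, and 5.45% and 6.45% did so by at least 1.5-fold. The median change of the members was 0.79, against -0.01 over all genes. In shTMEFF2 cells the same treatment raised 10 and lowered 2, of which 2 and 0 were called, against 7.84% and 5.21% of all genes (3.28% and 1.6% at 1.5-fold). The median change there was 0.33, against -0.02 over all genes. For 8 members the DHT response was smaller in shTMEFF2 past the test of the difference itself, and INSIG2 differed in the other direction.

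**Figure D1:**
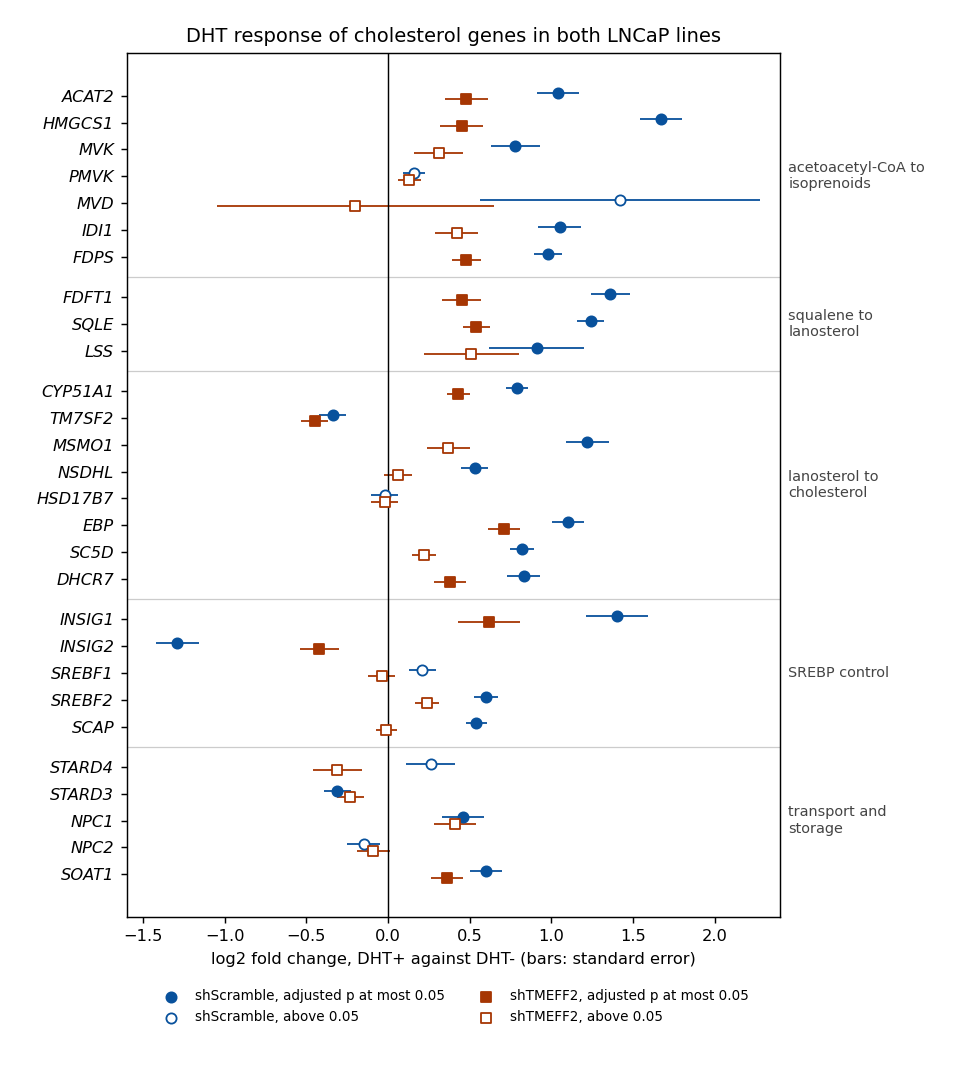
Change with DHT for each of the 28 genes, in pathway order. The horizontal axis is the log2 fold change of DHT+ against DHT-, circles are shScramble, squares are shTMEFF2, bars are standard errors and filled symbols passed the test. In shScramble 14 of the 18 enzymes rose, with HMGCS1 farthest to the right at 1.67, and INSIG2 lies to the left at -1.29. In shTMEFF2 the symbols lie nearer to 0 for most genes.

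The first steps, from acetoacetyl-CoA to the isoprenoids, include HMGCS1, the cytosolic synthase that makes HMG-CoA. It stood at 129, 177 and 180 CPM in shScramble DHT- and at 472, 547 and 528 in shScramble DHT+. In shTMEFF2 the values were 123, 149 and 150 at DHT- and 165, 212 and 198 at DHT+. The 3 shScramble DHT+ libraries stood apart from the other 9, and in shTMEFF2 the DHT groups also did not overlap. The response was 1.67 ± 0.13 (adjusted p = 2.3e-06) in shScramble and 0.45 ± 0.13 (adjusted p = 0.041) in shTMEFF2. The difference between the responses was -1.22 ± 0.19 (adjusted p = 0.0026), the largest among the members past that test. Of the exonic bases of HMGCS1, 37.7% lie opposite a lncRNA in GENCODE, and reads of the pair cannot be told apart without strand.

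Of the other enzymes of this stretch, FDPS, IDI1, ACAT2 and MVK also rose in shScramble. FDPS, which makes farnesyl diphosphate, the branch point to sterols and prenylated proteins, rose from 100, 114 and 118 to 205, 217 and 233 CPM in shScramble. In shTMEFF2 it went from 97.4, 104 and 114 to 133, 147 and 159. No DHT+ library overlapped a DHT- library in either line, and the responses of 0.98 ± 0.088 and 0.48 ± 0.088 differed by -0.50 ± 0.12 (adjusted p = 0.035), a call lost in 10 of 20 alternatives, 8 of which left out 1 library (values -0.57 to -0.42). IDI1, the isomerase that interconverts the isoprenoid building blocks, rose by 1.05 ± 0.13 in shScramble, and ACAT2, the cytosolic thiolase at the entry, by 1.04 ± 0.13. In shTMEFF2 the changes were 0.42 ± 0.13 (adjusted p = 0.052) for IDI1, which passed with the replicate number as a block (adjusted p = 0.00063), and 0.48 ± 0.13 (adjusted p = 0.032) for ACAT2. The differences between the responses, -0.62 ± 0.19 for IDI1 and -0.56 ± 0.19 for ACAT2, did not pass (adjusted p = 0.079 and 0.12), but did with the replicate block (adjusted p = 0.00092 and 0.015). The mevalonate kinase MVK rose by 0.78 ± 0.15 in shScramble and showed 0.31 ± 0.15 (adjusted p = 0.2) in shTMEFF2. PMVK, the kinase after it, did not pass in either line (0.16 and 0.13).

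MVD, the decarboxylase that closes the mevalonate stretch, could not be placed. Its levels were 61.0, 20.8 and 52.9 CPM in shScramble DHT-, 30.3, 34.6 and 296 in shScramble DHT+, 37.9, 101 and 55.2 in shTMEFF2 DHT- and 20.7, 26.4 and 121 in shTMEFF2 DHT+. The third replicate was the highest by far in both DHT+ groups, and the change of 1.42 ± 0.86 in shScramble did not pass (adjusted p = 0.25). Each library was deposited as 2 columns, and MVD differed by up to 4.82-fold between the columns of 1 library. LSS differed by up to 2.2-fold, and the largest difference among the other 26 members was 1.51-fold. Of the 7 genes of this stretch, 5 rose in shScramble and 3 (ACAT2, HMGCS1 and FDPS) in shTMEFF2.

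**Figure D2:**
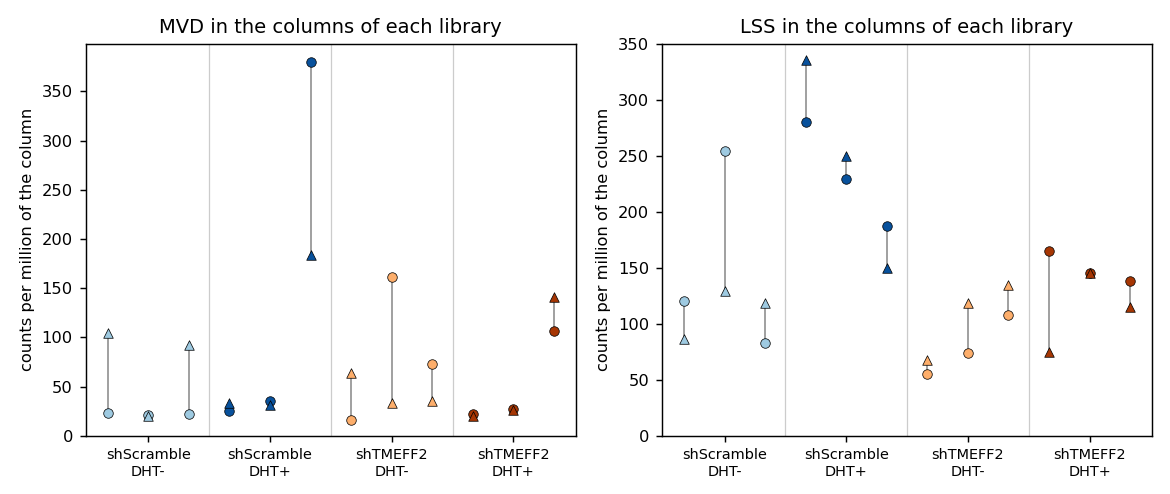
MVD (left) and LSS (right) in the 2 deposited columns of each library. The vertical axis is CPM (counts scaled to the total of the column), circles and triangles are the first and second column, and lines join the columns of 1 library. For MVD the columns of shTMEFF2 DHT- replicate 2 were 161 and 33.3.

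The 3 enzymes that turn farnesyl diphosphate into lanosterol all rose in shScramble. FDFT1, the squalene synthase and the step committed to sterols, went from 207, 231 and 253 CPM to 552, 548 and 682 in shScramble. In shTMEFF2 it went from 201, 236 and 230 to 251, 329 and 334. Without DHT the libraries of the lines overlapped, and with DHT every shScramble library stood above every shTMEFF2 library. The responses were 1.36 ± 0.12 and 0.45 ± 0.12, and their difference was -0.91 ± 0.17 (adjusted p = 0.0093).

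SQLE, the squalene epoxidase, carries out an oxygen-dependent step. It stood at 48.3, 59.2 and 59.1 CPM in shScramble DHT- and 131, 128 and 133 in shScramble DHT+. In shTMEFF2 it stood at 50.0, 50.9 and 51.8 without and 67.5, 74.5 and 79.5 with DHT. The shTMEFF2 DHT+ libraries thus lay between the DHT- libraries and those of shScramble DHT+, with no overlap on either side. The responses of 1.24 ± 0.084 and 0.54 ± 0.084 differed by -0.70 ± 0.12 (adjusted p = 0.0049). LSS, the cyclase that closes the sterol rings, rose in shScramble (0.91 ± 0.29, adjusted p = 0.036), although 1 DHT- library at 195 CPM stood above the lowest DHT+ library at 175, and that call was lost in 5 of 21 alternatives, 4 of which left out 1 library. In shTMEFF2 its change was 0.51 ± 0.29 (adjusted p = 0.29).

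The steps from lanosterol to cholesterol were less uniform. In shScramble 6 of the 8 genes rose, 1 fell and 1 did not pass, and in shTMEFF2 the counts were 3, 1 and 4. MSMO1, the oxidase that begins removal of methyl groups from the sterol ring, went from 62.0, 87.9 and 81.4 CPM to 168, 183 and 187 in shScramble. In shTMEFF2 its DHT- values of 65.2, 80.8 and 67.1 stood beside DHT+ values of 83.1, 104 and 88.3. The increase in shScramble was 1.22 ± 0.13 and the change in shTMEFF2 was 0.37 ± 0.13 (adjusted p = 0.078, or 0.01 with the replicate block), and the difference of -0.85 ± 0.18 passed (adjusted p = 0.017).

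SC5D, a sterol desaturase near the end of the chain, went from 124, 131 and 126 CPM to 218, 238 and 216 in shScramble and from 117, 138 and 122 to 139, 159 and 141 in shTMEFF2. All shTMEFF2 DHT+ libraries were above the DHT- ones and far below those of shScramble DHT+. The increase was 0.82 ± 0.076 in shScramble, against 0.22 ± 0.075 in shTMEFF2 (adjusted p = 0.072, or 0.01 with the replicate block), and the difference was -0.59 ± 0.11 (adjusted p = 0.0071). NSDHL, the dehydrogenase that works after MSMO1, went from 30.9, 31 and 32.2 CPM to 47.3, 43.1 and 45.1 in shScramble, while in shTMEFF2 it was 27.1, 33.6 and 31.6 without and 30.6, 33.2 and 32.7 with DHT. Its DHT+ and DHT- libraries overlapped in shTMEFF2 alone, and the difference of -0.46 ± 0.12 passed narrowly (adjusted p = 0.041) and was lost in 14 of 20 alternatives, 11 of which left out 1 library (values -0.55 to -0.39).

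EBP, CYP51A1 and DHCR7 rose in both lines. The sterol isomerase EBP, changed by 1.10 ± 0.097 and 0.71 ± 0.097, the latter the largest change of any member in shTMEFF2. CYP51A1, which removes a methyl group from lanosterol, changed by 0.79 ± 0.07 and 0.43 ± 0.07, and DHCR7, a reductase that makes cholesterol itself, by 0.83 ± 0.099 and 0.38 ± 0.098. The differences between the responses did not pass for these genes (-0.39, -0.36 and -0.45, adjusted p = 0.14, 0.057 and 0.091), but passed with the replicate block (adjusted p = 0.048, 0.012 and 0.021). Exonic bases shared with other annotated genes made up 74.1% of CYP51A1 and 36.4% of EBP, and reads of such pairs cannot be told apart. Of the members not yet mentioned for this, ACAT2 had the highest share at 22.2%.

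TM7SF2 and HSD17B7 ran apart from the rest. TM7SF2, a sterol reductase of the endoplasmic reticulum, fell from 198, 197 and 168 CPM to 157, 139 and 148 in shScramble and from 195, 223 and 191 to 154, 148 and 143 in shTMEFF2. It fell by 0.34 (SE 0.081) and 0.45 (SE 0.081), with no overlap between DHT+ and DHT- in either line and no difference between the lines past the test (-0.11 ± 0.11, adjusted p = 0.71). HSD17B7, a reductase of the demethylation steps, had changes of -0.02 ± 0.082 in both lines, with 95% intervals from -0.2 to 0.16. Some 23.1% of the 31-base words of its transcripts also occur in transcripts of other genes, the pseudogene HSD17B7P2 among them.

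**Figure D3:**
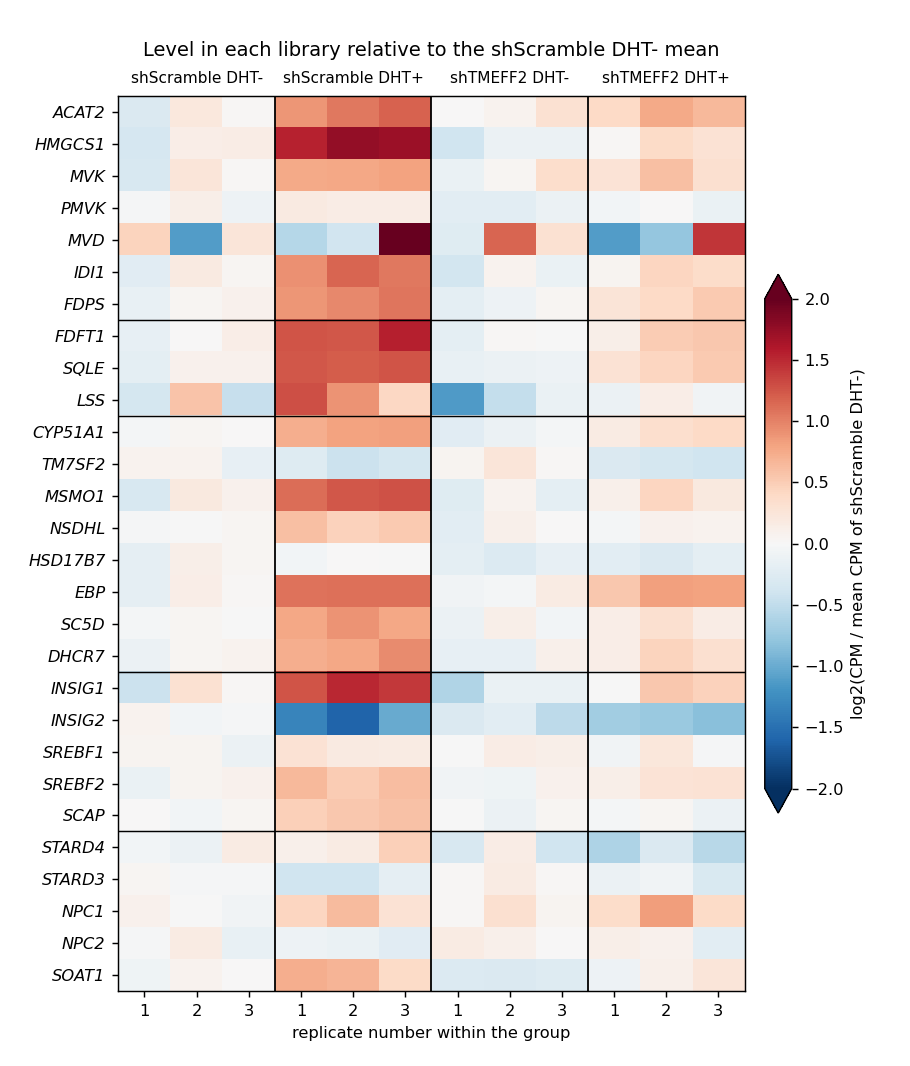
Level of each of the 28 genes in each of the 12 libraries as log2 of its CPM over the shScramble DHT- mean (red higher, blue lower, horizontal lines between role groups). The 3 shScramble DHT+ columns are red for most enzymes, and INSIG2 is blue in them. MVD and LSS vary between the columns of 1 group.

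Among the genes that control SREBP, the INSIG pair moved apart. INSIG1, itself raised by SREBP as part of the feedback loop, went from 96.8, 162 and 133 CPM to 314, 374 and 350 in shScramble. In shTMEFF2 it went from 86.7, 120 and 120 to 130, 191 and 181. The groups did not overlap in either line, with shTMEFF2 DHT+ replicate 1 close to the DHT- range. The increases were 1.40 ± 0.19 (adjusted p = 0.00015) and 0.62 ± 0.19 (adjusted p = 0.049), and the second was lost in 11 of 21 alternatives. The difference of -0.79 ± 0.26 did not pass (adjusted p = 0.12) but did with the replicate block (adjusted p = 0.0022).

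INSIG2, the second retention protein, which is not raised by SREBP in the same way, fell with DHT. It stood at 83.3, 76.8 and 78.2 CPM in shScramble DHT- and 31.7, 26.2 and 39.3 in shScramble DHT+. In shTMEFF2 it stood at 64.7, 68.9 and 55.3 without and 49.3, 47.4 and 44.6 with DHT. With DHT every shTMEFF2 library was above every shScramble library, and without DHT every one was below. The changes were -1.29 ± 0.13 (adjusted p = 1.1e-05) and -0.42 ± 0.12 (adjusted p = 0.042), and their difference was 0.88 ± 0.17 (adjusted p = 0.013). The second was lost in 11 of 21 alternatives, and the difference was lost with the first deposited column of each library alone (adjusted p = 0.13). Within each library, the log2 ratio of INSIG1 to INSIG2 CPM was 0.22, 1.08 and 0.77 in shScramble DHT- and 3.31, 3.84 and 3.15 in shScramble DHT+. In shTMEFF2 it was 0.42, 0.80 and 1.12 without and 1.39, 2.01 and 2.02 with DHT. The mean ratio was thus nearly equal in the lines without DHT (0.69 ± 0.44 and 0.78 ± 0.35, SD, n = 3) and stood at 3.43 ± 0.36 and 1.81 ± 0.36 with DHT.

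SCAP, the escort protein, went from 89.0, 84.5 and 91.1 CPM to 123, 128 and 133 in shScramble and was 87.7, 81.0 and 90.4 without and 85.7, 90.6 and 81.3 with DHT in shTMEFF2. The 9 libraries other than shScramble DHT+ thus shared 1 range. The change was 0.54 ± 0.065 (adjusted p = 6.5e-05) in shScramble and -0.01 ± 0.065 in shTMEFF2, with a 95% interval from -0.15 to 0.13. Their difference was -0.55 ± 0.092 (adjusted p = 0.0049).

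SREBF2 went from 273, 310 and 317 CPM to 472, 427 and 461 in shScramble and from 286, 283 and 320 to 326, 361 and 366 in shTMEFF2. The DHT groups did not overlap in either line. Its change was 0.60 ± 0.076 in shScramble and 0.24 ± 0.075 in shTMEFF2 (adjusted p = 0.052, or 0.024 with the replicate block), and the difference of -0.35 ± 0.11 did not pass (adjusted p = 0.082, or 0.038 with the block). SREBF1, whose product acts mainly on fatty acid genes, did not pass in either line (0.21 ± 0.082, adjusted p = 0.072, and -0.04 ± 0.082), and passed in shScramble with the block (adjusted p = 0.047).

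**Figure D4:**
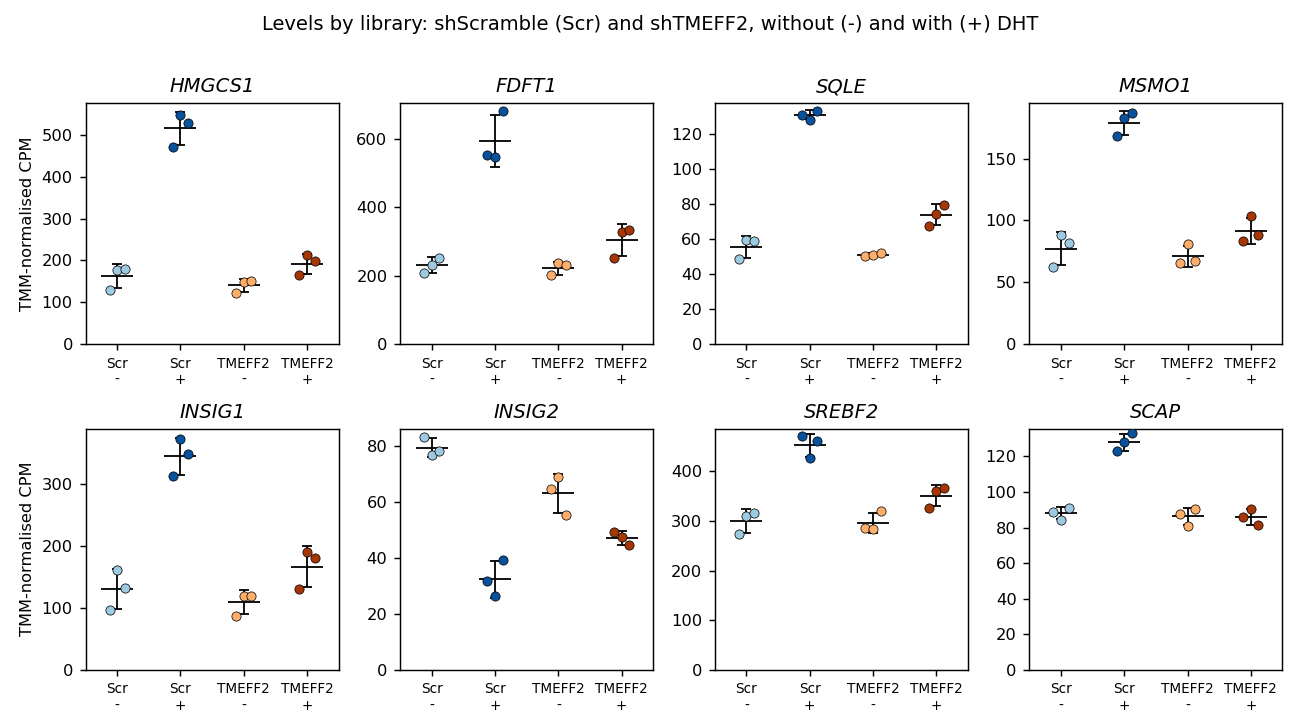
TMM-normalized CPM of 4 enzymes (top) and 4 control genes (bottom) in every library. Points are libraries, horizontal marks are group means and bars are SD (n = 3), each axis starts at 0, and Scr stands for shScramble. The 3 shScramble DHT+ points are the highest for each gene except INSIG2, for which they are the lowest.

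Of the 5 transport and storage genes, 2 rose and 1 fell in shScramble, and 1 rose in shTMEFF2. SOAT1, which esterifies cholesterol for storage in droplets, rose in both lines, from 59.5, 66.4 and 63.2 to 104, 101 and 81.8 CPM in shScramble and from 52.1, 51.4 and 52.5 to 58.6, 67.3 and 74.8 in shTMEFF2. The libraries with DHT stood above those without in both lines, with changes of 0.60 ± 0.10 and 0.36 ± 0.10. NPC1, which exports cholesterol from lysosomes, rose by 0.46 ± 0.13 in shScramble and showed a near equal 0.41 ± 0.13 in shTMEFF2 (adjusted p = 0.061, or 0.013 with the block). STARD3, a sterol tether of late endosomes, fell by 0.31 (SE 0.082) in shScramble, while its -0.23 ± 0.082 in shTMEFF2 did not pass (adjusted p = 0.087). NPC2, the soluble partner of NPC1, and STARD4, a cytosolic sterol carrier, did not pass in either line. No interaction passed in this group.

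Compared directly, the lines did not differ past the test for any member without DHT and differed for most with DHT. At DHT- 0 of 28 passed in either direction, against 0.623% of all genes higher and 0.493% lower in shTMEFF2. The median difference was -0.06. An unadjusted p under 0.05 was found for 4 of the 28 members (PMVK, HSD17B7, INSIG2 and SOAT1) and for 2080 of all 15419 genes, a near equal share. DESeq2 and limma-voom also gave 0. For 24 of the 26 members other than MVD and LSS the 95% interval of this difference lay within 1.5-fold in both directions, the exceptions being INSIG1 and INSIG2. At DHT+ 17 members were lower in shTMEFF2 and 1, INSIG2, was higher (0.54 ± 0.13, adjusted p = 0.011), against 9.09% and 6.93% of all genes. At 1.5-fold 8 were lower and 0 higher, against 3.74% and 3.03%. The median difference was -0.50, against 0.00 over all genes.

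The 8 called lower at DHT+ were HMGCS1 (-1.43 ± 0.13), INSIG1 (-1.05 ± 0.19), MSMO1 (-0.97 ± 0.13), FDFT1 (-0.96 ± 0.12), SQLE (-0.83 ± 0.083), IDI1 (-0.76 ± 0.13), STARD4 (-0.74 ± 0.15) and SC5D (-0.61 ± 0.075). STARD4 was 75.3, 78.2 and 97.6 CPM in shScramble DHT+ and 45.6, 57.4 and 47.5 in shTMEFF2 DHT+, with no overlap, although DHT had not changed it past the test in either line (0.26 and -0.31). Of the 17 lower members, 8 also had a smaller DHT response past its own test (FDFT1, FDPS, HMGCS1, MSMO1, NSDHL, SC5D, SCAP and SQLE). The comparisons share libraries, so these counts are not independent of the DHT responses above.

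**Figure D5:**
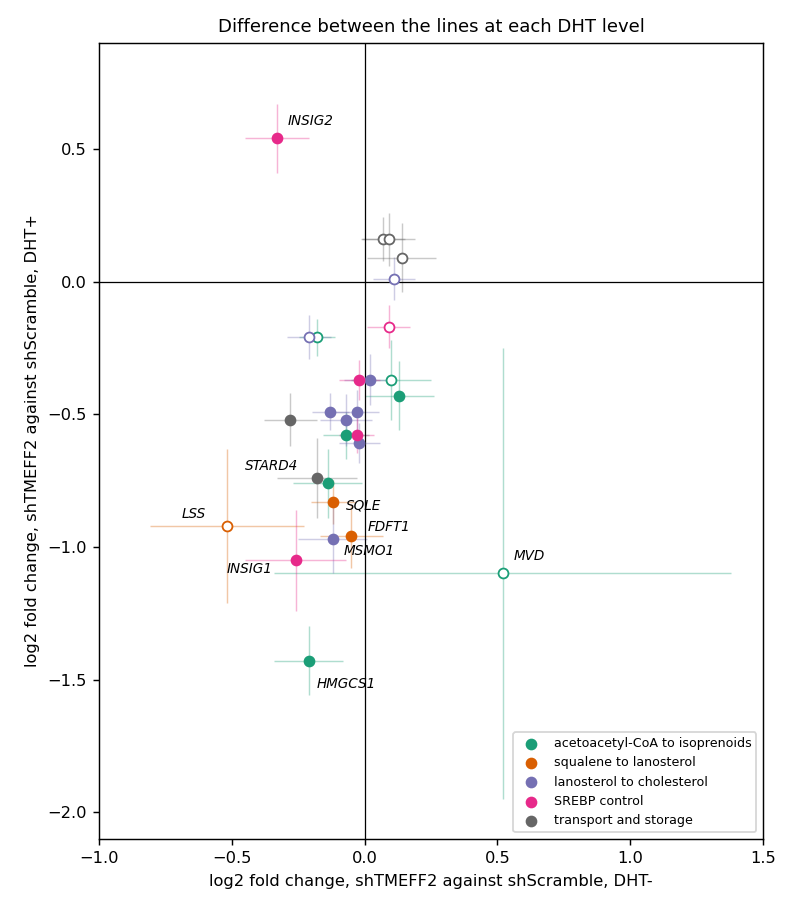
Log2 fold change of shTMEFF2 against shScramble at DHT- (horizontal) and DHT+ (vertical), 1 point per gene with standard errors, colored by role and filled where the DHT+ difference passed the test. Apart from MVD and LSS, the points lie between -0.33 and 0.14 on the horizontal axis and reach down to -1.43 on the vertical one, and INSIG2 is alone in the upper left.

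The interaction, which tests whether the response to DHT differs between the lines, passed for 9 members, 8 of them lower and 1 higher in shTMEFF2, against 3.29% and 1.65% of all genes. The estimate was below 0 for 25 of 28 members and for all 18 enzymes, with a median of -0.46 over members and 0.01 over all genes. By stretch it passed for 2 of 7 early enzymes, 2 of 3 in the squalene stretch, 3 of 8 later ones, 2 of 5 control genes and 0 of 5 transport genes. HMGCS1, FDFT1, SQLE, MSMO1, SC5D and SCAP kept the call in all 20 alternatives. With the replicate number as a block, shared by both lines, 16 members passed, 15 lower and 1 higher, while DESeq2 gave 14.

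Summed over the 18 enzymes, the RNA came to 1593, 1876 and 1759 CPM in shScramble DHT- and 3271, 3366 and 3705 in shScramble DHT+. In shTMEFF2 it came to 1482, 1765 and 1727 without and 1819, 2156 and 2173 with DHT. The sum grew 1.98-fold with DHT in shScramble and 1.24-fold in shTMEFF2, weighted toward abundant and long transcripts. By stretch the folds were 2.31 and 1.28 for the early enzymes, 2.33 and 1.39 for the squalene stretch and 1.55 and 1.13 for the later steps. The 5 control genes gave 1.44 and 1.09, and the 5 transport genes 1.19 and 1.04. Replicate 1 had the lowest of the 3 values for 17, 14, 19 and 21 of the 28 members in shScramble DHT-, shScramble DHT+, shTMEFF2 DHT- and shTMEFF2 DHT+. These ranks were not counted over all genes, so they are not read as a trait of the members.

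The count of members past the test for DHT in shTMEFF2 depended on single libraries. It was 12 with all libraries, 5 without shTMEFF2 DHT- replicate 1, 7 without shTMEFF2 DHT- replicate 2, and 5 without either replicate 2 or replicate 3 of shTMEFF2 DHT+. FDPS, SQLE, CYP51A1, TM7SF2 and EBP passed under all 21 alternatives. ACAT2, HMGCS1, FDFT1, DHCR7, SOAT1 and the INSIG pair lost the call under at least 4 of them.

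Other genes of the pathway were taken from 3 lists that do not hold the members. Of all genes, 14.4% rose and 12.6% fell past the test with DHT in shScramble, and 7.84% and 5.21% in shTMEFF2. Of 11 other enzymes of the isoprenoid and sterol branches, 10 were tested, and 4 rose and 1 fell with DHT in shScramble and 2 and 0 in shTMEFF2. GGPS1, which makes geranylgeranyl diphosphate from the product of FDPS, rose by 0.59 ± 0.058 in shScramble and changed by 0.04 ± 0.058 in shTMEFF2, a difference of -0.55 ± 0.082 (adjusted p = 0.0023). Of 17 genes of SREBP processing and sterol-regulated degradation, 5 rose and 2 fell in shScramble and 3 and 0 in shTMEFF2. The cargo receptor TMED2 rose by 0.68 ± 0.049 and 0.19 ± 0.049, differing by -0.50 ± 0.069 (adjusted p = 0.0015), and SEC24C, a subunit of the coat of vesicles that leave the endoplasmic reticulum, changed by 0.39 ± 0.069 and -0.06 ± 0.069, differing by -0.45 ± 0.098 (adjusted p = 0.02). C12orf49 (SPRING1), needed for SREBP cleavage, went the other way, -0.59 ± 0.13 in shScramble and -0.39 ± 0.13 (adjusted p = 0.068) in shTMEFF2.

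Of 14 other transport genes, 11 were tested, and 6 rose and 2 fell in shScramble and 1 and 1 in shTMEFF2. Over all genes the shares were 14.4% and 12.6% in shScramble and 7.84% and 5.21% in shTMEFF2. LIPA, the lysosomal lipase that frees cholesterol from its esters, changed by 0.51 ± 0.068 in shScramble and 0.00 ± 0.068 in shTMEFF2, a difference of -0.51 ± 0.096 (adjusted p = 0.0096), and OSBP, an oxysterol-binding exchanger, by 0.44 ± 0.077 and -0.02 ± 0.077, differing by -0.45 ± 0.11 (adjusted p = 0.032), a call lost in 11 of 20 alternatives. STARD3NL, a tether of late endosomes, rose by 0.62 ± 0.079 in shScramble, and GRAMD1C, a sterol transfer protein, fell by 0.96 (SE 0.11) in shScramble and 0.43 (SE 0.11) in shTMEFF2. TMEM97, which binds NPC1, rose about equally, by 0.56 ± 0.11 and 0.75 ± 0.11. With the lines compared at DHT-, none of the tested genes of these 3 lists passed, against 0.623% of all genes higher and 0.493% lower. At DHT+, 0 of 10 enzymes, 1 of 17 processing genes and 2 of 11 transport genes were higher in shTMEFF2, and 3, 4 and 3 were lower. Over all genes 6.93% were higher and 9.09% lower at DHT+. The median differences there were 0.10, -0.01 and -0.01, against -0.50 for the members. The members and lists were chosen with earlier results of these data known, so this contrast describes them and does not test them.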

How the data were processed

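RNA-seq of 12 LNCaP libraries (75 bp paired-end reads) was analysed from 1 table. Per the paper's methods and the submitters' processing notes, the authors checked reads with FastQC, trimmed them with Trimmomatic and quantified transcripts with kallisto 0.42.3 on GRCh38. The authors deposited estimated counts per gene, rescaled from TPM by transcript length and sequencing depth, and these expected counts can be fractional. The 24 columns, 2 per library, were assigned by name (0 unmatched). The columns of a library differed less (median chi-square over its expectation 2.48–2.77) than replicates did (4.91–6.3), so they were summed as 1 replicate and rounded.

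Counts were fitted in R 4.3.3 with edgeR 4.0.16 (TMM, factors 0.955 to 1.04, filterByExpr with a minimum count of 10 and a total of 15, quasi-likelihood test), with all 12 libraries and 1 coefficient per group. The 5 contrasts were DHT in each line, the lines at each DHT level and the interaction, with Benjamini-Hochberg adjustment over 15419 genes. Limits were an adjusted p of 0.05 and 1.5-fold, and the interaction was judged on the adjusted p alone. Standard errors follow from the log2 fold change and its F value. The common biological coefficient of variation was 0.131.

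Within a line, same-numbered libraries deviated together (r 0.126 to 0.178 in shScramble, 0.123 to 0.249 in shTMEFF2), so blocked values are given where they change a call. Between lines some pairs fell below 0.1, down to -0.001. The block nevertheless joined same-numbered libraries of both lines, a pairing across lines that the labels do not state. Alternatives were DESeq2 1.42.0, limma 3.58.1 (voom), other filters and scaling, fewer libraries, the block, and, chosen after seeing the data, either column alone. The pipeline was tested on simulated data. The members and lists, and the rule that names every member, TMEFF2 and those genes of the other lists that were called or had an interaction, were chosen with earlier results of these data known. Promoters are from RefSeq (GRCh38.p14), and gene overlaps and shared sequence, counted in 31-base words, from GENCODE.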

Additional observations from a re-analysis of the deposited data

Results flagged for a closer look

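For 14 genes the response to DHT differed between the lines by the test of the interaction (edgeR's quasi-likelihood test, adjusted p at most 0.05). The difference, shTMEFF2 minus shScramble on the log2 scale, was -1.22 for HMGCS1, -0.91 for FDFT1, -0.85 for MSMO1, -0.70 for SQLE, -0.59 for SC5D, -0.50 for FDPS and -0.46 for NSDHL among the enzymes. Among the genes of SREBP control it was -0.55 for SCAP and 0.88 for INSIG2. Among the other genes of the pathway it was -0.55 for GGPS1, -0.50 for TMED2, -0.45 for SEC24C, -0.51 for LIPA and -0.45 for OSBP. INSIG2 alone had a positive value, since it fell less in shTMEFF2. Luminal marker RNA summed to 5127–5546 CPM in shScramble DHT+ and 3710–3761 CPM in shTMEFF2 DHT+, and its part in these differences was not tested.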

How the results depend on the processing

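The count of members past the test for the interaction moved from 9 to 14 with DESeq2 and to 16 with the replicate block. For DHT in shTMEFF2 the count of 12 ranged from 5 to 14 when 1 library was left out. It was 5 without shTMEFF2 DHT- replicate 1, shTMEFF2 DHT+ replicate 2 or shTMEFF2 DHT+ replicate 3, and 7 without shTMEFF2 DHT- replicate 2. Leaving out 1 library gave 19 to 23 for DHT in shScramble, 16 to 20 for the lines at DHT+ and 7 to 11 for the interaction, and 0 for the lines at DHT-. The replicate block gave 23, 17 and 21 for DHT in shScramble, DHT in shTMEFF2 and the lines at DHT+, and besides the calls given in the text, MVK, PMVK and LSS became lower at DHT+ (adjusted p = 0.045, 0.047 and 0.044), and STARD3NL passed for DHT in shTMEFF2 (0.045) and the interaction (0.042). It changed no other call. No median over the members moved by more than the replicate spread (0 of 104). Of 3952 values of single genes, 3731 kept their side of the threshold, 144 lost it, 77 gained it and 0 called values changed sign, while 107 values that had not passed did. Of the interactions, NSDHL was lost in 14, OSBP in 11, FDPS in 10 and SEC24C in 5 of 20 alternatives, and LIPA was lost with the second column of each library alone (adjusted p = 0.13). Lists were not tested as sets, and 3 libraries per group limit what small differences can pass.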
